A study of Mus musculus with 4 samples.

Results

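The 10 genes described here encode myosin light chains and light chain kinases: the ventricular chains Myl2 and Myl3, the atrial chains Myl4 and Myl7, the fast skeletal chains Myl1 and Mylpf, the smooth muscle and non-muscle chains Myl6 and Myl9, and the kinases Mylk and Mylk3. They were found as every probe set (a group of short probes for one transcript) annotated to exactly 1 gene symbol, where that symbol was one of the 10. This gave 10 of 18193 genes with such a probe set and 15 of 45037 probe sets tested, with 3 each for Myl3 and Mylk, 2 for Myl4 and 1 for each other gene. A pair of further probe sets named Myl6 together with Gm8894 and Gm5526 and were kept apart.

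Hearts of transgenic mice, labelled Tg-Sirt1 1 and Tg-Sirt1 2, were set against hearts of wild type mice, labelled NTg 1 and NTg 2, on 1 array per mouse. The title and labels name a Sirt1 transgene and its effect on cardiac gene expression as the question. All 4 mice received pentobarbital at 120 mg/kg before the hearts were frozen. The sources used here give no age, sex, strain, transgene promoter or line, and do not say which chambers were sampled.

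Before any comparison, the array labelled Tg-Sirt1 1 must be set beside NTg 1, because their values nearly coincided. Their differences had an SD of 0.0759 log2 units over all probe sets, against 0.342 to 0.405 in the other 5 pairs of arrays. The members followed this, with a largest difference of 0.15 in that pair. Sirt1 itself, read by 1 probe set, read 7.16 on Tg-Sirt1 1 and 7.93 on Tg-Sirt1 2, against 7.30 and 7.17 on NTg 1 and 2. The array labelled Tg-Sirt1 1 thus had the lowest Sirt1 value of all, which goes against its label, and whether this probe set reads the transgene is not known. No array was moved, Tg-Sirt1 and NTg below mean the arrays so labelled, and every direction between them rests on those labels. Each gene is therefore given by array, and also after averaging those near-identical arrays into 1. The heart origin of the RNA was visible on all arrays: the 10 cardiomyocyte markers, such as Tnnt2, Actc1 and Ryr2, read 12.24 to 14.20 on the log2 scale, while the array medians were 6.22 to 6.30.

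Each head of a myosin heavy chain carries an essential and a regulatory light chain on its lever arm. In the adult mouse heart, ventricular muscle uses Myl3 (essential) and Myl2 (regulatory), and atrial muscle uses Myl4 (essential) and Myl7 (regulatory). Phosphorylation of the regulatory chain, by Mylk3 in cardiac muscle and by Mylk in smooth muscle and non-muscle cells, modulates force and is reversed by myosin phosphatase. The atrial chains are also expressed in the embryonic ventricle, so they are commonly read both as chamber markers and as fetal genes.

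The following 250 bases upstream of the RefSeq start (GRCm38.p6, written along the strand of the gene) are shown because they let the ventricular and the atrial genes be compared at the sequence level, and because in these genes the stretch ends directly before the annotated gene. Capitals mark the CArG box, the site of serum response factor, which drives many contractile genes.
Myl2, chr5:122092474-122092723, plus strand: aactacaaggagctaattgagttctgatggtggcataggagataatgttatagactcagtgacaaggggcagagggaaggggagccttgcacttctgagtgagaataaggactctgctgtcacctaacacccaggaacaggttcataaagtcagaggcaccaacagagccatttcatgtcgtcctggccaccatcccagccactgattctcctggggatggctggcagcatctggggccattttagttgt
Myl3, chr9:110763428-110763677, plus strand: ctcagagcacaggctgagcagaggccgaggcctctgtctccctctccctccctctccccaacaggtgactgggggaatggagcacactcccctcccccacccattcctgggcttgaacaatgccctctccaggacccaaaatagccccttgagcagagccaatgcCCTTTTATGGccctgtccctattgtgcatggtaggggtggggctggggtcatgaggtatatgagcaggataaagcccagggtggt
Myl7, chr11:5898783-5899032, minus strand: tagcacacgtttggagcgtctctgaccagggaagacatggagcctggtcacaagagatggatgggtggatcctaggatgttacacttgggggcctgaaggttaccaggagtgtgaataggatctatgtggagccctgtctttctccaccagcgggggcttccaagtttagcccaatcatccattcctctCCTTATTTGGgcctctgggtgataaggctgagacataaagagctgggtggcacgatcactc

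The box lay 85 bases before the start in Myl3 and 61 bases before it in Myl7, and the Myl2 stretch shown held none. A further Myl2 stretch and the stretch of the atrial gene Myl4 held none either. They are not shown because they do not end directly before the annotated gene. Searched on both strands, a CArG box occurred in 4 of the 13 upstream stretches listed for the members, those of Myl3, Myl7, Myl9 and Myl6, and in 1.47% of all 32851 stretches of this length. The named MEF2 site occurred in 0 of the 13, against 2.92% of all. The E-box, CANNTG, occurred in 8 of the 13, against 66.2% of all. These are matches of letters and do not show that a factor was bound.

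Between the labels no light chain or kinase passed the test. In limma, 0 of the 15 member probe sets had an adjusted p under 0.05, where 0% of all probe sets did, and 0 of the 15 had an unadjusted p under 0.05, where 28 probe sets or 0.0622% of all did. The lowest unadjusted p among the members was 0.133, and every adjusted p was 0.996. The median log2 fold change of the 15 probe sets was -0.08, against -0.015 for all probe sets. Of the 15, 6 were higher and 9 lower in Tg-Sirt1, against 20520 and 23926 of all probe sets. By gene, with 1 probe set each, the median was 0.0325, against 0.015 for all genes, with 6 members higher and 4 lower. The direction thus depended on how genes with several probe sets were counted. Both Tg-Sirt1 arrays lay above both NTg arrays at 0 of the 15 (9.59% of all probe sets) and below them at 3 of the 15 (11.4% of all), a Myl3, the Mylpf and a Mylk probe set. An exact two-sided permutation test of 2 arrays against 2 cannot give a p below 0.333, and a p that misses the threshold is no evidence of equal levels.

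**Figure D1:**
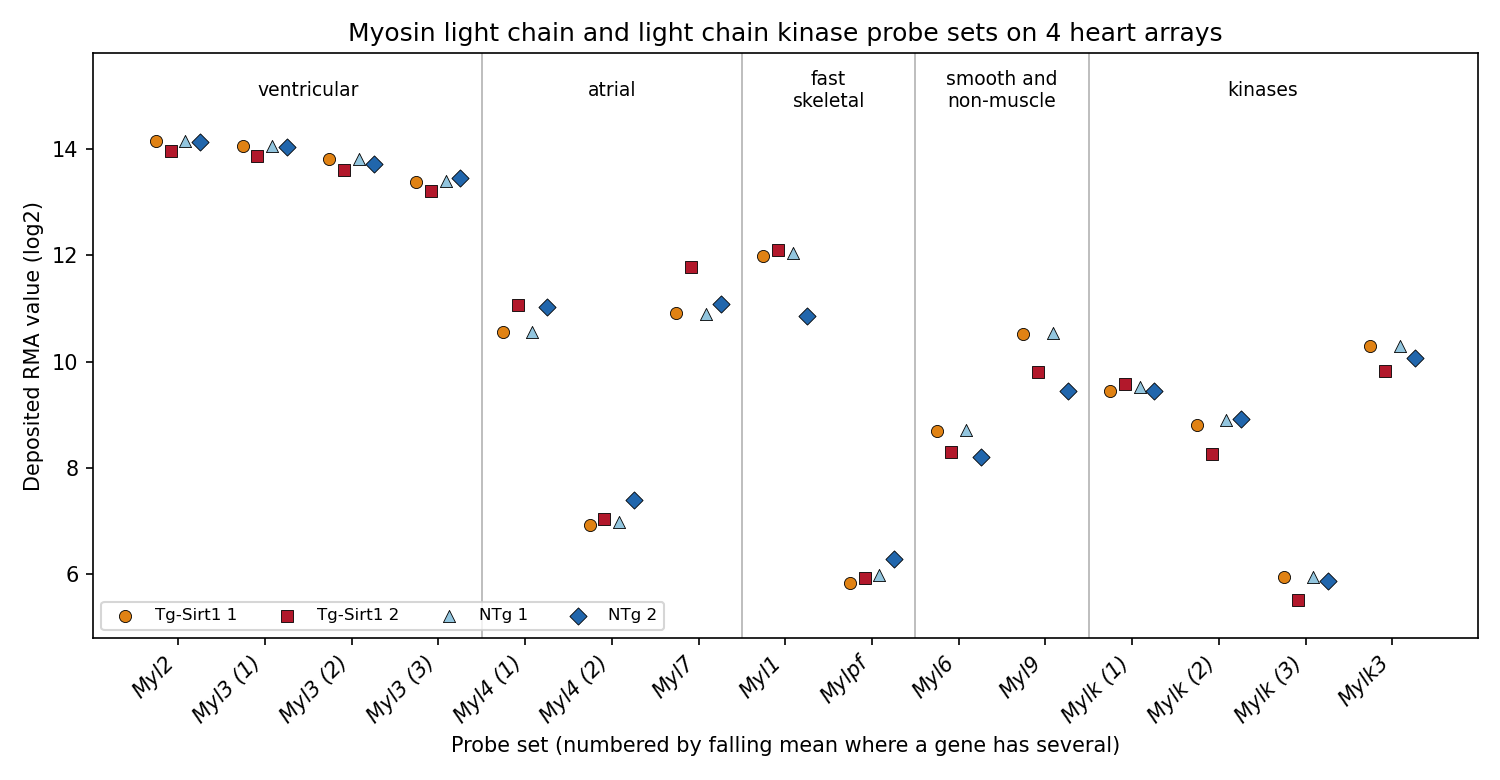
Deposited log2 values (vertical axis) of the 15 member probe sets (horizontal axis) on the 4 arrays, 1 point per array. The Tg-Sirt1 1 and NTg 1 points lie within 0.15 of each other everywhere, Myl1 stands low on NTg 2 (10.85) and Myl7 high on Tg-Sirt1 2 (11.78).

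The ventricular chains spanned 0.19 log2 units over the 4 arrays, at values close to the highest of each array. Myl2 read 14.14 and 13.96 on Tg-Sirt1 1 and 2, against 14.15 and 14.12 on NTg 1 and 2. The brightest Myl3 probe set read 14.06 and 13.87 on the Tg-Sirt1 arrays and 14.05 and 14.04 on the NTg arrays. In both genes Tg-Sirt1 2 was the lowest array, by 0.16 and 0.17 log2 units from the next, and the groups overlapped.

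Myl2 averaged 14.05 ± 0.13 in Tg-Sirt1 and 14.14 ± 0.02 in NTg (SD, n = 2 each), a log2 fold change of -0.09 with a 95% confidence interval from -0.44 to 0.27. Myl3 averaged 13.97 ± 0.13 in Tg-Sirt1 and 14.05 ± 0.01 in NTg (SD, n = 2 each), a log2 fold change of -0.08 (95% confidence interval -0.43 to 0.27). Counting the pair once gave Myl2 a log2 fold change of -0.17 as NTg and -0.07 as Tg-Sirt1, and Myl3 -0.18 as NTg and -0.08 as Tg-Sirt1. The other Myl3 probe sets, the second brightest and the dimmest, had log2 fold changes of -0.07 and -0.13 and were likewise lowest on Tg-Sirt1 2. The dimmest read 13.38 and 13.20 in Tg-Sirt1 and 13.39 and 13.45 in NTg, so that its groups did not overlap, by a margin of 0.01. The highest value of an array was 14.08 to 14.20 on the log2 scale, so a higher level of either gene may not show, and the narrow span is no evidence of equal levels. Of the 10 cardiomyocyte markers, 7 were also lowest on Tg-Sirt1 2. Among them Myh6, the main adult heavy chain, read 13.93 and 13.86 in Tg-Sirt1 and 13.93 and 13.92 in NTg.

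Both atrial chains were highest on Tg-Sirt1 2, which was also the highest array for Myl1 and the brightest Mylk probe set. Myl7 read 10.91 and 11.78 on Tg-Sirt1 1 and 2, against 10.89 and 11.09 on NTg 1 and 2. On Tg-Sirt1 2 it was 1.84 times the mean of the near-identical pair and 1.61 times NTg 2, while the array labelled Tg-Sirt1 1 lay between the NTg arrays. The means were 11.35 ± 0.62 in Tg-Sirt1 and 10.99 ± 0.14 in NTg (SD, n = 2 each), with a log2 fold change of 0.36, a standard error of 0.31 and a limma adjusted p of 0.996. With the pair counted once as NTg the log2 fold change was 0.79 (adjusted p = 0.767), with the pair counted once as Tg-Sirt1 it was 0.25 (0.846), and without Tg-Sirt1 2 it was -0.08.

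The bright Myl4 probe set read 10.56 and 11.07 in Tg-Sirt1, against 10.55 and 11.02 in NTg. Here the second array of each label was high and the near-identical pair low, so the labels averaged 10.82 ± 0.36 in Tg-Sirt1 and 10.79 ± 0.33 in NTg (SD, n = 2 each) and the log2 fold change was 0.03 (95% confidence interval -0.61 to 0.67). With the pair counted once, its sign depended on the label given to the pair: 0.28 as NTg and -0.21 as Tg-Sirt1. A dim Myl4 probe set did not follow the bright one: it read 6.92 and 7.05 in Tg-Sirt1 and 6.99 and 7.39 in NTg, highest on NTg 2. Both atrial genes had Tg-Sirt1 2 first, NTg 2 next and the pair last, an order seen at 9.73% of all 18193 genes. A measure of RNA quality had this order too, the 3′ minus 5′ log2 signal at the array's control probe sets, where a larger value means less signal from the 5′ end. For beta-actin it was 1.25 and 1.92 in Tg-Sirt1 and 1.22 and 1.44 in NTg, and for Gapdh 0.19 and 1.34 in Tg-Sirt1 and 0.18 and 0.69 in NTg. Its part in the values of the atrial chains, and in those of Myl2, the brightest Myl3 probe set and Mylk3, which had the opposite order, was not tested.

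Of the 9 atrial markers, 3 were highest on Tg-Sirt1 2, where 35.8% of all genes were, and these shared that order: Nppa, Sln and Fgf12. Another 3 were lowest on that array, where 23.2% of all genes were: Bmp10, Nr2f2 and Tbx5. Tbx5 read 7.97 and 7.19 in Tg-Sirt1 and 8.03 on both NTg arrays, so its groups did not overlap. Nppa, the atrial natriuretic peptide gene, read 11.40 and 11.94 in Tg-Sirt1 and 11.39 and 11.88 in NTg. Sln, which encodes the atrial calcium pump inhibitor sarcolipin, read 10.60 and 11.36 in Tg-Sirt1 and 10.60 and 10.95 in NTg. Fgf12, a fibroblast growth factor family gene, read 7.39 and 7.75 in Tg-Sirt1 and 7.39 and 7.42 in NTg. Sln and Fgf12 were picked out after their values were seen. Other atrial markers had other orders: Nr2f2, an atrial transcription factor gene also expressed in vascular cells, read 7.37 and 5.91 in Tg-Sirt1 and 7.37 and 7.34 in NTg, and the potassium channel gene Kcna5 read 7.67 and 8.04 in Tg-Sirt1 and 7.75 and 8.70 in NTg. Over the whole list, 3 had a higher and 6 a lower Tg-Sirt1 mean (median log2 fold change -0.04), and none passed. Bmp10, an atrial growth factor gene also picked out after its values were seen, read 5.52 to 5.73, below every array median. The 9 atrial markers summed to 5555 and 7716 in Tg-Sirt1 and 5562 and 7243 in NTg on the linear scale. Nppa and Sln, the brightest, supplied most of these sums. The 4 ventricular markers, Irx4, Hey2, Irx5 and Pln, had a median log2 fold change of 0.11 and summed to 15783 and 14306 in Tg-Sirt1 and 15787 and 14313 in NTg. Pln, also a cardiomyocyte marker, read 13.75 to 13.90, and Irx4, Hey2 and Irx5 read 4.90 to 8.30. Nearly all of each sum was therefore Pln. Hey2 and Irx5 were highest on Tg-Sirt1 2, Irx4 and Pln were not. In bulk heart RNA, more atrial cells and more RNA per cell cannot be told apart, and the part of atrial tissue in the Myl4 and Myl7 values was not tested. Of 6 fetal and load-responsive markers, Nppa and Tnni1 were highest on Tg-Sirt1 2. The other 4, Nppb, Myh7, Acta1 and Ankrd1, were lowest there and highest on NTg 2, as 34.3% of all genes were. Nppb read 11.76 and 11.55 in Tg-Sirt1 and 11.76 and 12.46 in NTg. The list had a median log2 fold change of -0.34 and none passed. A fetal reading of the atrial chains was not tested.

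Set within each array, the balance of the chamber isoforms lay furthest towards the atrial chains on Tg-Sirt1 2. The Myl7 minus Myl2 difference, centred on its mean over the 4 arrays, was -0.31 and 0.75 log2 units in Tg-Sirt1 and -0.34 and -0.11 in NTg. The Myl4 minus Myl3 difference, centred in the same way, was -0.30 and 0.41 in Tg-Sirt1 and -0.30 and 0.19 in NTg. A scale shared by all probe sets of an array cancels in such differences. Both were highest on Tg-Sirt1 2 and overlapped between the labels. Since Myl2 and Myl3 read near the top of the arrays, these differences follow mainly the atrial values given above and are no separate evidence.

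**Figure D2:**
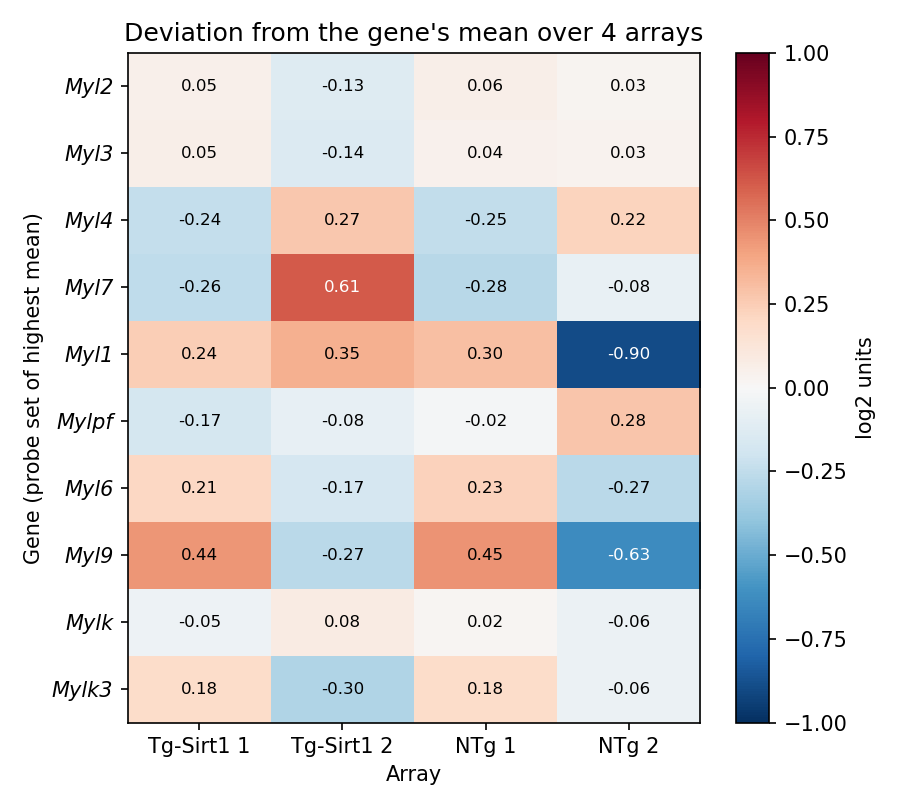
Deviation of the brightest probe set of each gene (rows) from its own mean over the 4 arrays (columns), in log2 units, with red above and blue below that mean. The columns Tg-Sirt1 1 and NTg 1 are alike, and the strongest entries are Myl1 and Myl9 on NTg 2 and Myl7 on Tg-Sirt1 2.

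Of the fast skeletal chains, Myl1 spanned the widest range of all members. Myl1, the essential light chain of fast fibres, read 11.99 and 12.10 on Tg-Sirt1 1 and 2, against 12.05 and 10.85 on NTg 1 and 2. A single array, NTg 2, stood apart: the near-identical pair was 2.25 times and Tg-Sirt1 2 was 2.38 times as high. The means were 12.05 ± 0.08 in Tg-Sirt1 and 11.45 ± 0.85 in NTg (SD, n = 2 each), and the log2 fold change of 0.60 (standard error 0.40, limma adjusted p = 0.996) became -0.01 without NTg 2. With the pair counted once it was 0.67 as NTg (adjusted p = 0.998) and 1.21 as Tg-Sirt1 (0.508).

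Mylpf, the regulatory chain of fast fibres, did not share this. Its probe set read 5.84 and 5.93 in Tg-Sirt1 and 5.99 and 6.29 in NTg, close to the array medians, where no detection call was at hand. It was highest on NTg 2, the array on which Myl1 was lowest, and its groups did not overlap. The log2 fold change was -0.26 (95% confidence interval -0.66 to 0.15), and it was -0.37 with the pair counted once as Tg-Sirt1 and -0.17 with the pair as NTg. Without NTg 2 it was -0.11, and without NTg 1 it was -0.41.

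Markers of skeletal muscle did not follow Myl1 either. Of the 12 on the list, 2 had a higher and 10 a lower Tg-Sirt1 mean (median log2 fold change -0.10) and none passed. The calsequestrin gene Casq1 read 7.91 and 8.47 in Tg-Sirt1 and 7.93 and 10.02 in NTg, and Mybpc2, the fast myosin-binding protein C gene, read 7.06 and 7.09 in Tg-Sirt1 and 7.22 and 9.10 in NTg. Both were high on NTg 2, as was Acta1, the skeletal actin gene that the fetal and loaded heart also expresses, at 7.23 and 6.46 in Tg-Sirt1 and 7.37 and 12.17 in NTg. The fast-fibre genes Tnnt3 and Myh4, picked out after their values were seen, were low on every array: Tnnt3 read 4.23 to 4.45 and Myh4 4.17 to 4.25. The list summed to 1215.5 and 1349 in Tg-Sirt1 and 1255 and 2541 in NTg on the linear scale. The higher sum on NTg 2 came mainly from Casq1 and Mybpc2 and is no rise of the whole list.

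The genes whose centred values over the 4 arrays lay closest to those of Myl1, among 580 genes that spanned over 1 log2 unit, were Phlda1 (mean absolute difference 0.015), Ifit1 (0.025) and Blvrb (0.029). Phlda1 read 9.19 and 9.27 in Tg-Sirt1 and 9.23 and 8.0 in NTg. With 3 arrays nearly level, likeness here means little more than an NTg 2 value lower by the same amount, and NTg 2 was the lowest array at 37.9% of all genes.

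The smooth muscle and non-muscle chains were highest on the near-identical pair and lower on both other arrays. Myl9, the regulatory chain of smooth muscle, read 10.52 and 9.81 on Tg-Sirt1 1 and 2, against 10.53 and 9.45 on NTg 1 and 2. The pair was 1.64 times as high as Tg-Sirt1 2 and 2.11 times as high as NTg 2. Because a high and a low array stood under each label, the means were 10.17 ± 0.50 in Tg-Sirt1 and 9.99 ± 0.76 in NTg (SD, n = 2 each), with a log2 fold change of 0.18 and a 95% confidence interval from -0.91 to 1.26. With the pair counted once, the log2 fold change was -0.18 as NTg and 0.72 as Tg-Sirt1.

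Myl6, the essential chain that pairs with Myl9 in smooth muscle and non-muscle myosin, had the same order of arrays at a smaller size. Its own probe set read 8.69 and 8.31 in Tg-Sirt1 and 8.71 and 8.21 in NTg, a log2 fold change of 0.04 (95% confidence interval -0.56 to 0.64). The pair above Tg-Sirt1 2 above NTg 2 is the order of 12.1% of all genes. The probe sets shared with Gm8894 and Gm5526 disagreed on Tg-Sirt1 2. The dimmer one read 10.35 and 9.84 in Tg-Sirt1 and 10.36 and 9.62 in NTg, as Myl6 did. The brighter one read 11.37 and 11.54 in Tg-Sirt1 and 11.38 and 10.82 in NTg, low on NTg 2 alone. These cannot be assigned to 1 gene.

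The summed levels of stromal and vascular markers were also highest on the pair, though not every gene was. Of the 8 fibroblast markers 1 was highest on Tg-Sirt1 2, of the 11 smooth muscle and pericyte markers 1 was highest there and 2 on NTg 2, and of the 5 endothelial markers 1 on each. The 8 fibroblast markers summed to 26125 and 19408 in Tg-Sirt1 and 26121 and 14253 in NTg on the linear scale, all 8 with a higher Tg-Sirt1 mean (median log2 fold change 0.26) and none past the test. All 8 were lowest on NTg 2, as 37.9% of all genes were, so the shared direction follows that 1 array. Col1a1, a collagen I chain, read 10.50 and 9.58 in Tg-Sirt1 and 10.51 and 9.18 in NTg, and Tcf21, a fibroblast transcription factor gene, read 9.25 and 9.06 in Tg-Sirt1 and 9.25 and 8.18 in NTg. Col3a1 and Col1a2 also spanned over 1 log2 unit, with NTg 2 lowest.

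The 11 smooth muscle and pericyte markers summed to 21047 and 17911 in Tg-Sirt1 and 21030 and 13809 in NTg, with 7 higher and 4 lower means (median 0.04). Acta2, smooth muscle actin, and Rgs5, the brightest, supplied most of these sums. Acta2 was low on NTg 2 (13.21 and 12.92 in Tg-Sirt1, 13.20 and 11.83 in NTg), while Rgs5 read 12.20 to 12.36. The lower sum on NTg 2 therefore follows mainly Acta2. Of the 11 markers, 6 were lowest on NTg 2, where 37.9% of all genes were, and 4 on Tg-Sirt1 2 (23.2%). Tagln, the smooth muscle actin-binding protein transgelin, was low on Tg-Sirt1 2 (10.13 and 9.13 in Tg-Sirt1, 10.16 and 10.11 in NTg). Myh11, the smooth muscle heavy chain that binds Myl9, read 8.83 and 8.29 in Tg-Sirt1 and 8.83 and 8.74 in NTg, so it shared the low value on Tg-Sirt1 2 but not that on NTg 2. The 5 endothelial markers summed to 4424 and 3380 in Tg-Sirt1 and 4443 and 3342 in NTg. Their part in the Myl6 and Myl9 values was not tested.

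The 3 genes nearest to Myl9 over the 4 arrays were the lysosomal protease gene Ctsz (mean absolute difference 0.023), Rgs7bp (0.028) and Josd2 (0.029). Ctsz read 8.34 and 7.65 in Tg-Sirt1 and 8.30 and 7.28 in NTg. None of the 3 is on a list used here, and likeness over 4 arrays, of which a pair is near-identical, rests on very few distinct values.

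**Figure D3:**
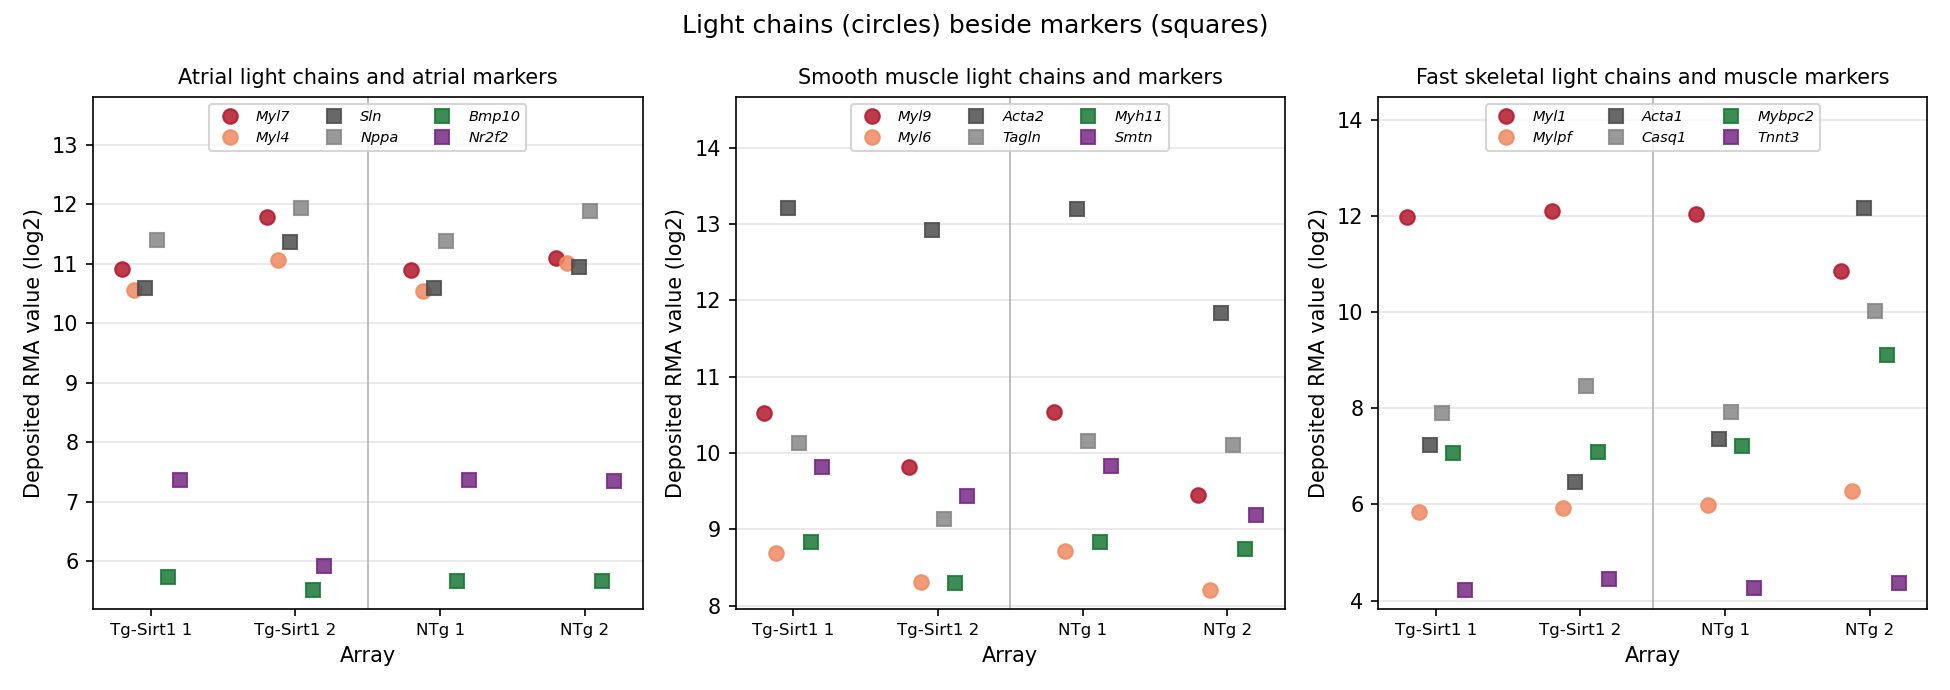
Deposited log2 values (vertical axes) of atrial, smooth muscle and fast skeletal light chains (circles) beside marker genes (squares) on the 4 arrays (horizontal axes), points shifted sideways for legibility. Myl4, Myl7, Nppa and Sln are highest on Tg-Sirt1 2, and Bmp10 and Nr2f2 are lowest there. Myl9 is highest on Tg-Sirt1 1 and NTg 1. Myl1 is lowest on NTg 2, where Acta1, Casq1 and Mybpc2 are highest.

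The kinases gave no common picture, and the probe sets of Mylk disagreed. The brightest Mylk probe set read 9.45 and 9.58 in Tg-Sirt1 and 9.52 and 9.44 in NTg, a range of 0.14 and the smallest among the members. A second read 8.81 and 8.26 in Tg-Sirt1 and 8.90 and 8.93 in NTg. The third and dimmest read 5.95 and 5.52 in Tg-Sirt1 and 5.95 and 5.88 in NTg.

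The first was highest on Tg-Sirt1 2, and the others were lowest there. Their log2 fold changes were 0.04 ± 0.13, -0.38 ± 0.21 and -0.18 ± 0.18 (standard error), and the second had the lowest unadjusted p of all members, 0.133 (limma adjusted p = 0.996). Its groups did not overlap, by a margin of 0.09. Counting the pair once, the brightest probe set had a log2 fold change of 0.12 as NTg and 0.09 as Tg-Sirt1. All 3 were designed on the same sequence record, BF451748, and the Mylk locus also gives rise to the short protein telokin, so which transcripts each probe set reads is not settled here. The 3′ minus 5′ control signal given above was largest on Tg-Sirt1 2, and its part in the low Mylk probe sets was not tested.

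Mylk3, the cardiac kinase that phosphorylates Myl2, had 1 probe set. It read 10.30 and 9.82 in Tg-Sirt1 and 10.30 and 10.06 in NTg, lowest on Tg-Sirt1 2. The means were 10.06 ± 0.34 in Tg-Sirt1 and 10.18 ± 0.17 in NTg (SD, n = 2 each), and the log2 fold change was -0.12 (95% confidence interval -0.65 to 0.41). With the pair counted once it was -0.36 as NTg and 0.00 as Tg-Sirt1. Mylk3 had the order of arrays of Myl2 and the brightest Myl3 probe set: pair, NTg 2, Tg-Sirt1 2, which 8.28% of all genes had. The place of NTg 2 in it is uncertain for the chains. NTg 2 lay below NTg 1 by only 0.03 in Myl2 and 0.01 in Myl3, near the top of the arrays. The dimmest Myl3 probe set was highest on NTg 2.

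**Figure D4:**
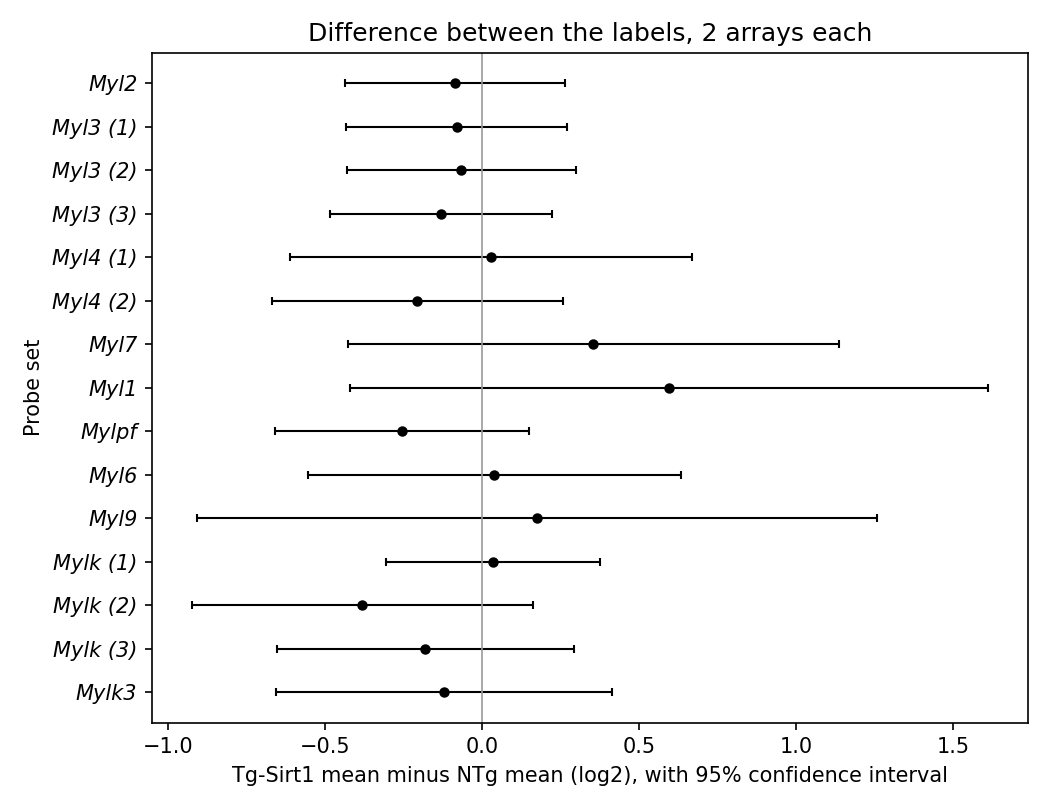
Mean of the Tg-Sirt1 arrays minus mean of the NTg arrays (horizontal axis, log2) for each of the 15 member probe sets (rows), with limma's 95% confidence interval as bars, 2 arrays per label. Every interval includes 0, and those of Myl1, Myl7 and Myl9 are the widest.

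Over single pairs of arrays, few members differed by over 2-fold. Tg-Sirt1 1 and NTg 1 differed by that much at 0 of the 15 member probe sets (0% of all probe sets), and Tg-Sirt1 1 and NTg 2 at 2 of 15 (1.22% of all). The counts were 0 for Tg-Sirt1 2 and NTg 1 (2.06% of all) and 1 for Tg-Sirt1 2 and NTg 2 (2.44% of all). Within a label they were 0 for Tg-Sirt1 2 and Tg-Sirt1 1 (2.02%) and 2 for NTg 2 and NTg 1 (1.27%). Myl1 and Myl9 supplied all of these, each through its low value on NTg 2. The median range of a member gene over the 4 arrays was 0.49 log2 units, against 0.34 for all genes.

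The other genes of the light chain system were described from lists of 33 genes, of which 29 had a probe set with 1 symbol. None passed in either direction, 11 had a higher and 18 a lower Tg-Sirt1 mean, and the median log2 fold change was -0.03, against 0.015 for all genes. Among the other light chains and kinases, Mylk4 spanned over 1 log2 unit, at 11.53 and 11.88 in Tg-Sirt1 and 11.55 and 10.82 in NTg, low on NTg 2 as Myl1 was. The 7 genes of myosin phosphatase and its control had 4 higher and 3 lower means (median 0.07), and none of them spanned 1 log2 unit. Dapk3, a kinase that can phosphorylate regulatory light chains, read 6.89 and 5.73 in Tg-Sirt1 and 6.87 and 5.87 in NTg.

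Of the 12 heavy chains that light chains bind, 2 had a higher and 10 a lower Tg-Sirt1 mean (median -0.09), against 9653 and 8324 of all genes. The lower ones ranged from -0.01 in Myh14 to -1.195 in Myh7, and none passed. Of the 12, 7 were highest on NTg 2 (34.3% of all genes) and 7 lowest on Tg-Sirt1 2 (23.2%), so the count rests largely on those arrays. Myh7, the slow heavy chain, read 11.64 and 10.89 in Tg-Sirt1 and 11.65 and 13.27 in NTg. Slow myosin shares Myl2 and Myl3 with the adult ventricular heavy chain. The dimmest Myl3 probe set was also highest on NTg 2, at 13.45, but little above its 13.39 on NTg 1. The second brightest Myl3 probe set was not: it read 13.80 and 13.60 in Tg-Sirt1 and 13.81 and 13.72 in NTg. Myl2 and the brightest Myl3 probe set were too near the top of the array to be read against Myh7.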

How the data were processed

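Total RNA from 4 hearts was measured on 4 Affymetrix arrays. The authors deposited normalized log2 intensities. Per the submitters' processing notes, the tools were RMA and Affymetrix Expression Console, their versions not stated. RMA quantile normalizes the arrays and damps differences of dim probe sets. No scanner files were used, so detection and scan batches are not given here, and precision is limited by having 4 arrays.

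Of 45101 probe sets, 64 controls were left out. Tg-Sirt1 was compared with NTg over all others in limma 3.58.1 under R 4.3.3 (lmFit and eBayes, two-sided, Benjamini-Hochberg adjustment, threshold 0.05), with p-values adjusted over all of them. The fit was tested on simulated data with independent arrays and no near-identical pair, so its behaviour with such a pair was not tested. A gene with several probe sets was represented by the brightest one with 1 symbol. Differences are Tg-Sirt1 minus NTg. The design text gives 2 transgenic and 2 wild type mice, and p-values measure the spread between these arrays alone.

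The members, lists and tests were chosen with earlier results of these data known. Named genes were all members, list genes spanning over 1 log2 unit (up to 6 per list), Myh6, Myh7, Myh11, Nppa and Acta1, and the 3 genes nearest to each member that spanned over 1 log2 unit. Other list genes are named as examples outside this rule, with their values known. Promoter sequences and motif shares came from RefSeq (GRCm38.p6), where all 10 members matched by symbol in the promoter table and by Entrez ID in the gene table. Alternatives were a replicate block, each array left out, the near-identical pair counted once, scaling, a filter on dim probe sets, an offset of 16, another prior, another choice of probe set and other thresholds.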

Additional observations from a re-analysis of the deposited data

How the results depend on the processing

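No member probe set and no partner or regulator gene passed an adjusted p of 0.05 in any of the fits, and the lowest adjusted p of a member gene was 0.508. In the main fit, an adjusted p of 0.1 or an unadjusted p of 0.05 also gave 0 members. The result at the unadjusted threshold does not extend to the fits that leave 1 array under a label. Of 129 alternative log2 fold changes of the 10 genes, 21 had the other sign, at all genes but Mylpf. A second quantile normalization gave -0.0688 for Myl4, -0.0275 for Myl6 and -0.0706 for Mylk. The mean over all probe sets gave -0.0875 for Myl4 and -0.175 for Mylk. The pair counted once as NTg gave -0.15 for Myl6 and -0.18 for Myl9, and as Tg-Sirt1 -0.21 for Myl4. Leaving out each array in turn gave -0.005 to 1.195 for Myl1, -0.175 to 0.005 for Myl2, -0.175 to 0.015 for Myl3, -0.23 to 0.29 for Myl4, -0.21 to 0.29 for Myl6, -0.08 to 0.79 for Myl7, -0.37 to 0.72 for Myl9, -0.03 to 0.10 for Mylk, -0.36 to 0.12 for Mylk3 and -0.405 to -0.105 for Mylpf. It left 1 to 4 member probe sets wholly higher and 4 to 8 wholly lower, since fewer arrays then have to agree. A label left with 1 array was assumed to vary like the other. Without NTg 2, Myl1 took its lowest value and Myl9 was -0.365, and without Tg-Sirt1 2 Myl7 was -0.08. The cause of the sign changes was not tested. The filter on dim probe sets left no value for Mylpf.

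The replicate numbers carry no stated pairing. Deviations of same-numbered arrays correlated at 0.293 over probe sets, and the replicate block left Myl7 at 0.36 with 0 members called. Scaling moved the median of all probe sets by under 0.1 log2 units.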
